A study of Cricetulus griseus with 3 samples.

Results

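Nuclear receptors are transcription factors, most of which change their activity when a small fat-soluble molecule binds them. Steroid hormones, thyroid hormone, retinoic acid, vitamin D, oxysterols, bile acids and fatty acids are such ligands, and the receptors without a settled ligand are called orphan receptors. A bound receptor exchanges corepressors for coactivators at its target genes, and many receptors of lipids and vitamins do so as partners of a retinoid X receptor. The members described here were the spots of a cDNA array that the annotation gives a single gene symbol of a receptor family (Nr with its subfamily, Esr, Ppar, Rar, Rxr, Ror, Thr, Vdr) or of a coregulator family named for such receptors (such as Ncoa, Nrip, Thrap and Trip). There were 80 such spots among the 16928 tested, and they stood for 42 of 8146 genes. The letters of the rule gave 26 receptors, 8 coactivators (with Ppargc1a and Ppargc1b), 2 corepressors or repressor proteins, 5 proteins named for binding the thyroid hormone receptor, and Esrp1, a splicing regulator whose symbol only shares its first letters with the estrogen receptors.

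S-1 cells were compared with the CHO cells they descend from, a widely used line from the ovary of the Chinese hamster. The S-1 line came from the CHO-derived γ-30 line and carried constructs for all 4 subunits of γ-secretase (PS1, NCT-GST, Aph1-a2-HA and Flag-Pen2). The study also marks APP, a substrate of γ-secretase, as overexpressed in S-1 cells. They were kept under G418, puromycin, zeocin, hygromycin and blasticidin and received 0.05% DMSO for 24 h. The CHO cells carried no construct and received 10 µM DAPT, an inhibitor of γ-secretase, in 0.05% DMSO for the same 24 h. On each of 3 arrays, 1 culture of S-1 cells met 1 culture of CHO cells under DAPT (n = 3 arrays for every value), with S-1 RNA in Cy3 on arrays 1 and 2 and in Cy5 on array 3. Line, constructs, selection drugs and inhibitor differed together and cannot be told apart, and so cannot the reversed dye and array 3. S-1 is 1 line, and its values say nothing of other lines that carry the same constructs.

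Every value is a log2 ratio with S-1 as numerator and DAPT-treated CHO as denominator, so that 1 stands for a doubling. A ratio holds no level, and the cells could not be checked by markers of their type. The spots were mouse cDNA and the RNA was hamster, so that a ratio also depends on how well the 2 sequences pair. Hybridisation of RNA from related genes was not tested. Of the transfected subunits, Psenen (the gene of Pen2) was at 3.09 and Aph1a at 2.02, both passing the test, which checks the direction of the ratios. Ncstn was at 0.38 and did not pass. Pearson's r between arrays over all tested spots lay between 0.878 and 0.962. A spot or gene is said to have risen or fallen where limma, fitted over all spots or all genes, gave an adjusted p under 0.005.

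The array held clones of 3 collections, called H, P and N after the letter that opens their names, each at its own positions, and 480 further spots at positions for which the study lists no clone, called unlisted here. Of the members, 60 spots were H, 8 were P, 0 were N and 12 were unlisted. Among all 480 unlisted spots 78.8% rose, against 6.76% of all H spots, 19.3% of all P spots and 28.1% of all N spots. The median log2 ratio of the unlisted spots was 1.56. What the DNA at these spots was could not be checked. They carry gene names in the annotation, and their values are given with those names and apart from the listed clones. With these spots left out, 1238 spots of the array rose and 1414 fell, beside 1638 and 1442 with them. The first pair of counts lies close to the numbers of clones that the study lists as increased and decreased. Whether the study's own fit held the unlisted spots was not tested.

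Most receptor and coregulator spots lay near a ratio of 1, and the highest were unlisted. The highest listed clone, that of Trip4, was at 0.93, above the unlisted spots of Nr2f2 and Pparg. Of the 80 spots, 14 rose (background 9.68% of all tested spots), 7 fell (background 8.52%) and 59 did not pass. All 12 unlisted spots rose, at a median of 2.07. Of the other 68 spots, 2 rose (Trip4 and Trip13), 7 fell and 59 did not pass, at a median of −0.01 beside 0.01 for all tested spots. The H clones of the members held 2 that rose and 6 that fell of 60, where 6.76% and 8.52% of all H spots did. The P clones held 0 that rose and 1 that fell of 8, where 19.3% and 12.8% of all P spots did. None of the 39 receptor spots on listed clones rose, and 4 (10.3%) fell. Of all 16448 spots outside the unlisted ones, fitted without those, 1238 rose and 1414 fell. Which spots passed depended on the arrays: with array 2 left out, 6 spots rose and 0 fell, and 6 of the 21 that passed still did so. With array 1 left out 14 of them did, and with array 3 left out all 21. With the control spots kept in the fit 12 of them did, and the spots that no longer passed were the unlisted ones of Nr1h3, Pparg, Nr1d2 and Nr2f2 and the H clones of Nr2c2, Ncoa1, Nrip1, Thrap3 and Trip13 (adjusted p from 0.00538 to 0.0137, limma).

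**Figure D1:**
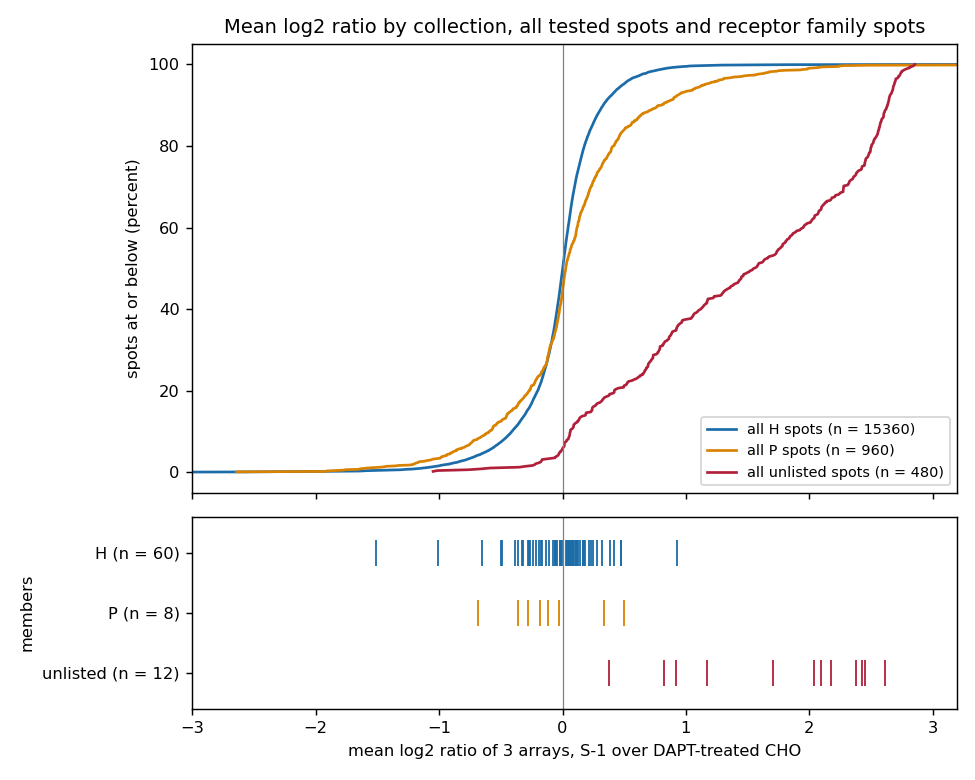
Mean log2 ratio (S-1 cells over CHO cells under DAPT) by clone collection. The upper panel gives the percentage of all tested H, P and unlisted spots at or below each value (the axis is drawn from −3 to 3.2 and a few H and P spots lie beyond it), and the lower panel marks each of the 60 H, 8 P and 12 unlisted spots of receptors and coregulators. The unlisted curve lies to the right of the others, with a median of 1.56, and the 12 unlisted spots of the members all lie above 0.

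Taken as genes, with the mean of all spots of a symbol as its value, 9 of 42 rose (background 12.4% of all genes), 2 fell (background 10.3%) and 31 did not pass. The 9 were Nr3c1, Thrb, Vdr, Nr1h4, Ppara, Ppard, Ppargc1a, Trip4 and Trip13, and the first 7 of these had an unlisted spot. The 2 that fell were Rxra and Nrip1. Without unlisted spots 37 genes had a value, of which 2 rose (Trip4 and Trip13, background 9.26%) and 4 fell (Rxra, Nrip1, Vdr and Nr5a2, background 10.6%). Nr3c1 and Vdr changed sign between these calculations, and the part of the unlisted spots in the results of a gene was not tested beyond the values with and without them.

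**Figure D2:**
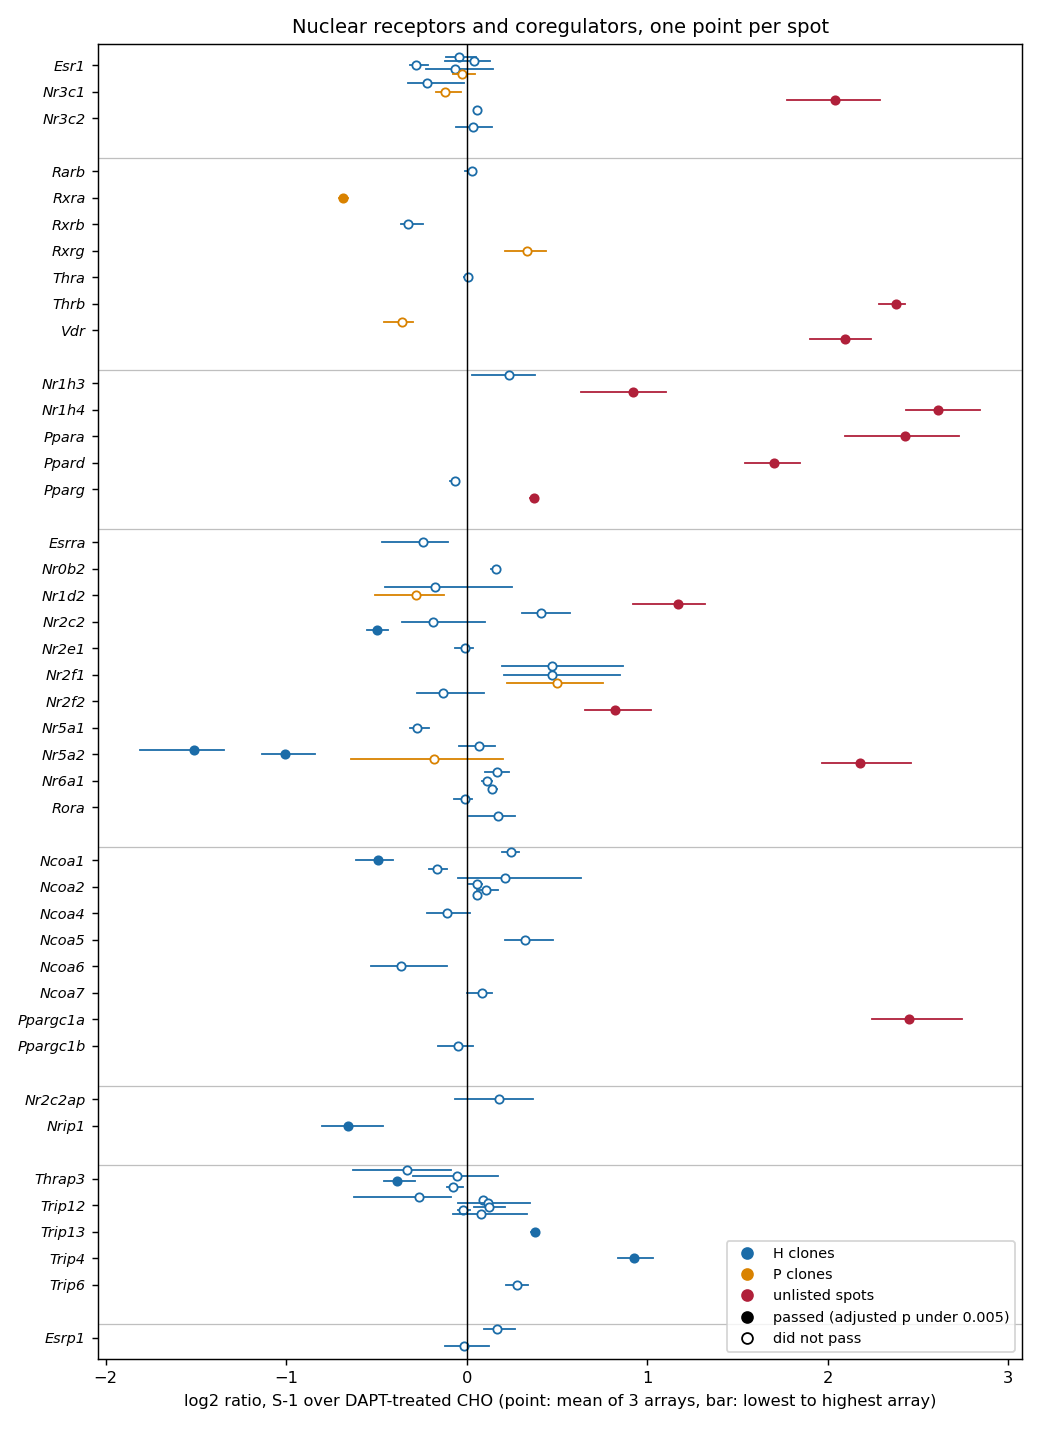
Log2 ratio (S-1 cells over CHO cells under DAPT) for all 80 spots of the 42 genes, ordered by role from steroid receptors at the top to Esrp1 at the bottom. A point is the mean of 3 arrays, its bar runs from the lowest to the highest array, its colour gives the collection, and filled points passed the test (adjusted p under 0.005). The 12 unlisted spots are all filled and to the right of 0, and the 2 lowest points are H clones of Nr5a2 at −1.51 and −1.01.

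The steroid receptors on listed clones gave no spot that passed. Of all H spots 6.76% rose and 8.52% fell, and of all P spots 19.3% and 12.8%. Esr1, the estrogen receptor alpha, was measured by 4 H clones and 1 P clone, and its 5 spots lay between −0.28 and 0.04 with a gene value of −0.07 ± 0.07 (SD, n = 3, adjusted p = 0.264, limma). The lowest of its clones was at −0.31, −0.31 and −0.21 on arrays 1 to 3 and missed the threshold (adjusted p = 0.0089), and the other spots of Esr1 had both signs among their arrays. Nr3c1, the glucocorticoid receptor, had an H clone at −0.31, −0.32 and −0.02 and a P clone at −0.03, −0.16 and −0.17. Neither passed. The unlisted spot of Nr3c1 was at 1.78, 2.06 and 2.29, a mean of 2.04 ± 0.26 and a ratio of 4.12 (adjusted p = 2.17e-04, limma). It lay above both listed clones on every array. The gene value of 0.57 therefore rose (adjusted p = 0.00171), while the listed clones alone gave −0.17 (adjusted p = 0.0419), and without array 1 or array 2 the gene value did not pass (adjusted p = 0.00814 and 0.0132). The 2 H clones of Nr3c2, the mineralocorticoid receptor, lay within 0.03 of each other and close to 0.

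Among the receptors of retinoids, thyroid hormone and vitamin D, Rxra was lower in S-1 cells. Rxra encodes a retinoid X receptor, the partner with which the retinoic acid, thyroid hormone and vitamin D receptors and the lipid sensors bind DNA. Its P clone was at −0.70, −0.71 and −0.66 on arrays 1 to 3, a mean of −0.69 ± 0.03 and 1.61-fold lower (95% interval −0.80 to −0.57, adjusted p = 4.51e-04, limma). The arrays lay close together, and the spot was the only one of Rxra. With array 2 left out its adjusted p was 0.0123. The other retinoid X receptors had 1 spot each and did not pass: Rxrb was at −0.32 on an H clone and Rxrg at 0.34 on a P clone. Rarb, a retinoic acid receptor, and Thra, the thyroid hormone receptor alpha, each on 1 H clone, were at 0.03 and 0.00.

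Thrb and Vdr rose as genes, both through unlisted spots. Thrb, the thyroid hormone receptor beta, had only an unlisted spot, at 2.43, 2.28 and 2.43 (2.38 ± 0.08, a ratio of 5.20, adjusted p = 1.17e-04, limma). Vdr, the vitamin D receptor, had an unlisted spot at 1.90, 2.14 and 2.24 (2.09 ± 0.17, adjusted p = 1.23e-04). Its P clone was at −0.33, −0.30 and −0.46, a mean of −0.36 ± 0.09. The P clone was below 0 on every array and just outside the threshold among all spots (adjusted p = 0.00548). As the sole listed spot of the gene it gave an adjusted p of 0.00466 among genes without unlisted spots. The 2 spots under the name of Vdr thus differed by 2.45 on the log2 scale, with opposite signs on all 3 arrays.

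The sensors of lipids and bile acids form heterodimers with retinoid X receptors and regulate the handling of cholesterol, bile acids and fatty acids. All 5 genes had an unlisted spot, and the 5 unlisted spots were the ones that rose, where 78.8% of all unlisted spots did. Nr1h4, the bile acid receptor, had only that spot, at 2.44, 2.55 and 2.85 (2.61 ± 0.21, a ratio of 6.10, adjusted p = 1.17e-04, limma), the highest value of all members. Ppara, which responds to fatty acids in liver, was at 2.10, 2.45 and 2.73 (2.43 ± 0.31, adjusted p = 2.17e-04) and Ppard at 1.54, 1.72 and 1.85 (1.70 ± 0.15, adjusted p = 1.40e-04). Neither had a listed clone, so that these 3 genes have no second spot to set beside their values.

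Nr1h3 and Pparg had a listed clone as well. The unlisted spot of Nr1h3, the liver X receptor alpha, which binds oxysterols, was at 1.03, 1.10 and 0.63 (0.92 ± 0.25, adjusted p = 0.00217, limma) and its H clone at 0.29, 0.38 and 0.03. Both spots were above 0 on every array and lowest on array 3, and the H clone did not pass (0.23, adjusted p = 0.0726). Pparg, the receptor that drives fat cell formation, had the smallest value among the unlisted spots, 0.37 ± 0.02 (0.35, 0.38 and 0.39, adjusted p = 0.00272), and its H clone was below 0 on every array (−0.04, −0.06 and −0.09, adjusted p = 0.303). The unlisted spots of both genes did not pass without array 1 or without array 2, and that of Ppara (adjusted p = 0.00602) did not pass without array 2. The gene value of Nr1h3, 0.58, was not past the threshold (adjusted p = 0.00573) and passed without array 3 (0.70, adjusted p = 1.99e-05), which carried the other dye.

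The 11 orphan and clock receptors had 25 spots, of which 3 rose and 3 fell, shares near the 9.68% and 8.52% of all tested spots. The 3 that rose were unlisted spots, of which 78.8% rose over the whole array, and none of the genes passed on its mean over spots. Nr5a2, the liver receptor homolog that regulates bile acid synthesis and early embryonic genes, had the widest range of any member. Its first passing H clone (H3047D07) was at −1.81, −1.38 and −1.35 on arrays 1 to 3 (−1.51 ± 0.26, 2.85-fold lower, adjusted p = 5.31e-04, limma). The second (H3087G01) was at −1.05, −0.84 and −1.14 (−1.01 ± 0.15, 2.01-fold lower, adjusted p = 5.68e-04). Both lay below 0 on every array. Another H clone stayed near 0 (0.15, 0.10 and −0.04) and the P clone was at −0.64, 0.20 and −0.10. The unlisted spot was at 1.97, 2.10 and 2.46 (2.18 ± 0.26, adjusted p = 1.80e-04), so that Nr5a2 was the one member with spots that passed in both directions.

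The gene value of Nr5a2 therefore depended on which spots were averaged. Over all 5 spots it was −0.09 ± 0.16 (adjusted p = 0.357, limma) and turned to 0.0018 without array 1. Over the 4 listed clones it was −0.66 (adjusted p = 0.00261), and over the 3 H clones −0.82 (adjusted p = 7.65e-04). Without array 2 neither H clone passed (adjusted p = 0.00843 and 0.0053). Which transcript of the gene each clone covers was not analysed here.

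**Figure D3:**
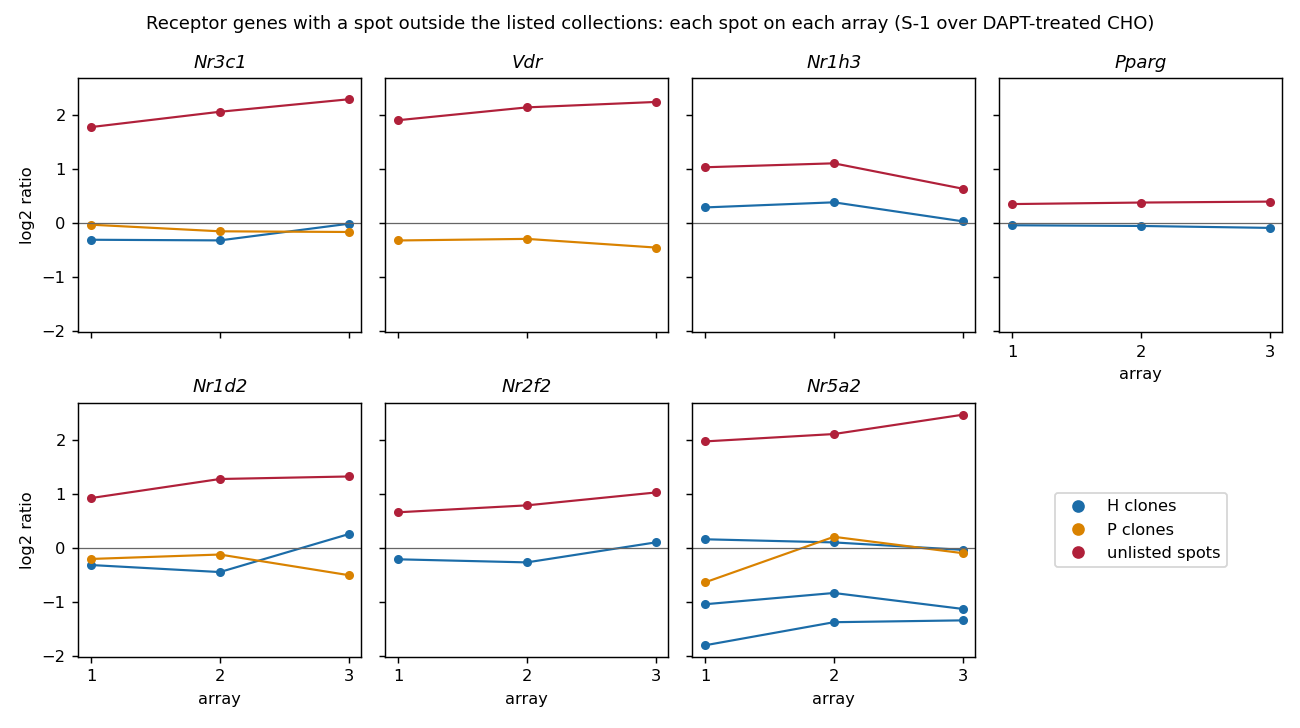
Each spot of the 7 receptor genes that had both listed clones and an unlisted spot, as the log2 ratio (S-1 cells over CHO cells under DAPT) on arrays 1, 2 and 3. A line joins the 3 arrays of a spot and stands for no order among them. In all 7 genes the unlisted spot is the highest on every array, and in Nr5a2 the spots run from −1.81 to 2.46.

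Nr1d2 and Nr2f2 showed the same arrangement on a smaller scale. Nr1d2, a heme-binding repressor of the circadian clock, was at 0.92, 1.27 and 1.32 on its unlisted spot (1.17 ± 0.22, adjusted p = 7.72e-04, limma), at −0.32, −0.45 and 0.25 on its H clone and at −0.21, −0.13 and −0.51 on its P clone. Only the unlisted spot passed, and the 2 listed clones differed in sign on array 3. Nr2f2, a COUP transcription factor needed for vein identity, was at 0.66, 0.78 and 1.02 on its unlisted spot (0.82 ± 0.19, adjusted p = 0.00152) and at −0.22, −0.27 and 0.10 on its H clone. Neither unlisted spot passed without array 2 (adjusted p = 0.0135 and 0.0209).

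Nr2f1 and Nr6a1 were the receptors of 3 spots whose clones lay closest together, and none of these spots was unlisted. Nr2f1, the other COUP transcription factor, was at 0.35, 0.20 and 0.87 on one H clone, at 0.36, 0.21 and 0.85 on the second and at 0.52, 0.22 and 0.75 on its P clone. All 9 values were above 0, with array 3 highest and array 2 lowest on each clone, and the clone means of 0.47, 0.47 and 0.50 agreed more closely than the arrays did. The gene value of 0.48 ± 0.31 did not pass (adjusted p = 0.0279, limma). It passed without array 3 (0.31, adjusted p = 0.00314) and with the dye as a second coefficient (0.57, adjusted p = 5.92e-05), a fit that leaves 1 degree of freedom within a gene. Nr6a1, the germ cell nuclear factor, lay between 0.11 and 0.17 on 3 H clones and did not pass.

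Nr2c2, an orphan receptor known as testicular receptor, had 3 H clones that pointed different ways. One was at −0.55, −0.51 and −0.44 (H3141D05, −0.50 ± 0.06, adjusted p = 0.00149, limma) and fell. Another was at 0.36, 0.57 and 0.30, above 0 on every array, with an adjusted p of 0.00735. The third was at −0.36, −0.31 and 0.10, and the gene value was −0.09. The clone that fell did not pass without array 1 (adjusted p = 0.0121) or without array 2 (adjusted p = 0.0254). The 5 other receptors of this group (Esrra, Nr0b2, Nr2e1, Nr5a1 and Rora) had 6 H clones between −0.27 and 0.17, of which 0 passed.

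The coactivators, which bring histone acetyltransferases and Mediator to a bound receptor, lay between −0.49 and 0.32 on listed clones. Of these 12 spots, all H clones, 1 passed and fell, where 6.76% of all H spots rose and 8.52% fell. Ncoa1, a steroid receptor coactivator, had an H clone that fell, at −0.45, −0.41 and −0.62 (H3129G07, −0.49 ± 0.11, 1.41-fold lower, adjusted p = 0.00278, limma). A second H clone of Ncoa1 was at 0.24, 0.29 and 0.20 and the other at −0.21, −0.17 and −0.11. Each clone kept its sign on all 3 arrays, although the clones differed among themselves, and the gene value of −0.14 did not pass (adjusted p = 0.0542). The clone that fell did not pass without array 1 (adjusted p = 0.0146) or without array 2 (adjusted p = 0.0247). Ncoa2, its close relative, lay between 0.05 and 0.21 on 4 H clones and did not pass. Ncoa4, Ncoa5, Ncoa6, Ncoa7 and Ppargc1b, with 1 H clone each, lay between −0.36 and 0.32.

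Ppargc1a, which coactivates many receptors in the control of mitochondria and gluconeogenesis, was measured by an unlisted spot alone. The spot was at 2.24, 2.36 and 2.74 (2.45 ± 0.26, a ratio of 5.46, adjusted p = 1.47e-04, limma). It was the second highest of the members, and among all unlisted spots 78.8% rose.

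Of the corepressors, Nrip1 fell. Nrip1 binds receptors that carry their ligand and recruits repressors, and it is known for its part in ovulation and fat storage. Its H clone was at −0.80, −0.47 and −0.70 on arrays 1 to 3 (−0.66 ± 0.17, 1.58-fold lower, adjusted p = 0.00256, limma). Array 2 was nearest to 0, and every array was below 0. Without array 1 the adjusted p was 0.0110 and without array 2 it was 0.0113. Nr2c2ap, which binds the testicular receptor, was at 0.18 on 1 H clone with both signs among the arrays.

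The proteins named for binding the thyroid hormone receptor held the only listed clones that rose. Trip4, an activating signal cointegrator that works with nuclear receptors, was at 0.91, 0.84 and 1.03 (0.93 ± 0.10, a ratio of 1.90, adjusted p = 3.64e-04, limma). Trip13, an ATPase that remodels proteins of the spindle checkpoint and of meiotic chromosomes, was at 0.39, 0.35 and 0.40 (0.38 ± 0.02, a ratio of 1.30, adjusted p = 0.00255). In both genes the arrays lay close together and well above 0, and each rested on 1 H clone. Trip13 did not pass without array 1 (adjusted p = 0.0226), and neither passed without array 2 (adjusted p = 0.00712 for Trip4 and 0.0336 for Trip13).

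The other members of this group moved little. Thrap3, a protein of RNA processing found with Mediator, had 4 H clones between −0.38 and −0.05, all of them negative in the mean. The lowest, at −0.41, −0.28 and −0.46 (−0.38 ± 0.09, adjusted p = 0.00475, limma), fell, and did not pass without array 1 (adjusted p = 0.0324) or array 2 (adjusted p = 0.0290). The gene value of Thrap3 was −0.21 (adjusted p = 0.0214). Trip12, a ubiquitin ligase and the gene with the most spots, lay between −0.27 and 0.12 on 6 H clones, none of which passed, with a gene value of 0.02 ± 0.01. Trip6, an adhesion protein with LIM domains, was at 0.28 on 1 H clone (adjusted p = 0.00934). Esrp1 had 2 H clones at −0.02 and 0.17.

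How far the spots of a gene lay apart differed between genes. Of the 18 genes with 2 or more spots, Vdr, Nr2c2 and Nr5a2 had spots beyond 0.3 in both directions. In the 7 genes with an unlisted and a listed spot, the unlisted one was the highest in 7, and the distance from the lowest to the highest spot ran from 0.44 in Pparg to 3.69 in Nr5a2. Among the genes without an unlisted spot, the distance ran from 0.02 in Nr3c2 to 0.91 in Nr2c2.

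A list of 55 coregulators outside the naming rule (acetyltransferases, methyltransferases, Mediator, deacetylase complexes, remodellers and chaperones of steroid receptors) had values for 43, none of them with an unlisted spot. Of these 2 rose, 6 fell and 35 did not pass, at a median of −0.04 beside 0.01 for all genes. With unlisted spots left out, as these genes have none, 9.26% of all genes rose and 10.6% fell. Over all spots 12.4% and 10.3% did. Ccnd1, cyclin D1, which also binds the estrogen receptor, had the lowest value, −0.97 ± 0.01 (adjusted p = 1.57e-04, limma). It was a mean over an H and an N clone, and the H clone alone was at −0.81 (adjusted p = 4.43e-04). Asxl1, a chromatin protein that binds retinoic acid receptors, was at −0.67, Sin3a, the scaffold of a deacetylase complex, at −0.51, and Smarca2, an ATPase of a chromatin remodeller, at −0.44. The other genes that fell were Med13l and Smarca4, at −0.35 and −0.33, which the naming rule leaves out. Psmc3, an ATPase of the proteasome, rose at 0.78 ± 0.14 (adjusted p = 9.32e-04). Hdac3, a histone deacetylase of corepressor complexes, rose at 0.68 ± 0.09 (adjusted p = 7.60e-04) over an H and an N clone, and its H clone alone was at −0.10. Of all 128 N spots 28.1% rose, and their median log2 ratio was 0.30. Without array 2, Psmc3, Hdac3, Asxl1, Sin3a and Smarca2 did not pass (adjusted p = 0.00577, 0.00833, 0.0146, 0.0189 and 0.0143), and without array 1 only Hdac3 of these 5 did. Leaving out array 1 or array 2 left 1 coregulator of this list that fell. Over all 16928 tested spots, 575 and 100 fell in these settings, beside 1442 with all arrays.

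Genes that supply or carry ligands had values for 21 of 42, of which 6 rose and 1 fell (12.4% and 10.3% of all genes did). Of the 6, Fabp1 and Fabp4, which bind fatty acids, Cyp27a1, which makes oxysterols, and Rbp4, which carries retinol, were measured by unlisted spots alone, at 2.68, 1.14, 2.66 and 2.21. Aldh1a1, which makes retinoic acid, fell on 2 H clones, with gene values of −1.37, −1.35 and −1.39 on arrays 1 to 3 (−1.37 ± 0.02, 2.59-fold lower, adjusted p = 1.36e-04, limma). Its arrays differed by less than 0.05. Without unlisted spots 17 genes remained with a value, of which 1 rose (Cyp17a1, 0.52) and 3 fell (Aldh1a1, Ptgs2 at −0.90 and Cyp46a1 at −0.44), where 9.26% and 10.6% of all genes did. Over all spots, an unlisted one among them, Cyp46a1 was at 0.90 and rose (adjusted p = 4.73e-04, limma) and Ptgs2 was at 0.44 and did not pass, so that both changed sign. Cyp17a1, Ptgs2 and Cyp46a1 were named after their values were seen.

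Of 62 target genes of these receptors, 39 had a value, and 17 rose (12.4% of all genes did), 6 fell (10.3% of all genes) and 16 did not pass, at a median of 0.19. An unlisted spot was present in 16 of the 17 that rose and was the only kind of spot in 11. Of all 39 target genes 23 had an unlisted spot, and 78.8% of all unlisted spots rose. The largest were Adipoq, the fat cell hormone adiponectin, at 2.69, Ucp3, an uncoupling protein, at 2.63, Pck1, an enzyme of gluconeogenesis, at 2.53 and Cd36, a fatty acid carrier, at 2.51, all on unlisted spots alone. Those that fell were led by Tgm2, a transglutaminase induced by retinoic acid, at −1.38 ± 0.10 on an H and a P clone (2.59-fold lower, adjusted p = 1.51e-04, limma). Ctsd, a lysosomal protease and estrogen target, followed at −0.85 ± 0.22 over 5 listed clones (adjusted p = 0.00174), then Fasn and Scd2, enzymes of fatty acid synthesis, at −0.63 and −0.55.

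Left with listed clones, 28 target genes had a value, of which 3 rose and 8 fell, at a median of −0.17, where 9.26% and 10.6% of all genes did on listed clones. Fasn was then at −1.31 (adjusted p = 3.67e-04, limma) and Scd2 at −0.91 (adjusted p = 5.00e-04). Chosen after their values were seen, Lpl, which frees fatty acids from lipoproteins, was at −1.20, and Cpt1a and Acadm, enzymes of fatty acid oxidation that rose over all their spots (0.61 and 0.88), were at −0.51 and −0.35 on H clones and fell. The 3 that rose were Cyp7a1, the rate-limiting enzyme of bile acid synthesis, at 0.72, Hoxb1 at 1.37 and Apoa1 at 0.34, likewise named after their values were seen. Hoxb1 rested on an N clone, a collection of which 28.1% of all spots rose, and its H clone alone was at 0.17 (adjusted p = 0.0631). Without array 2, the gene values over all spots of Ctsd, Fasn, Scd2 and, among the ligand carriers, Fabp4 did not pass (adjusted p = 0.0121, 0.00577, 0.0140 and 0.00577), and without array 1 those of Fasn and Scd2 (adjusted p = 0.0117 and 0.0125). Of the target genes, 2 fell without array 1 and 1 without array 2. Over all 16928 tested spots, 575 and 100 fell in these settings, beside 1442 with all arrays.

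**Figure D4:**
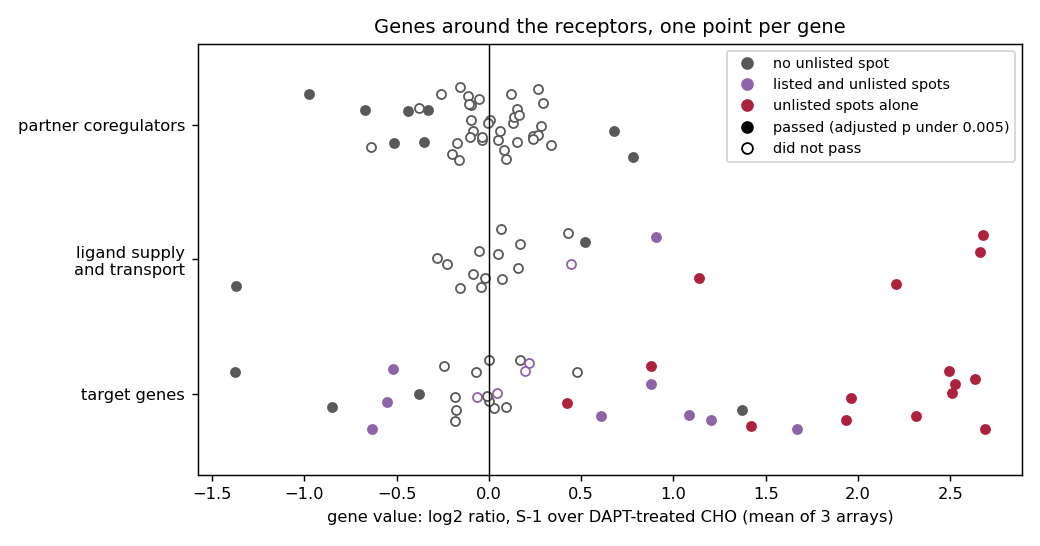
Gene values (mean log2 ratio over 3 arrays, S-1 cells over CHO cells under DAPT) of 43 partner coregulators, 21 genes of ligand supply and transport and 39 target genes, 1 point per gene, spread vertically within a list only to separate the points. Filled points passed the test (adjusted p under 0.005) and colours give the kinds of spot behind a gene. The genes above 2 are all measured by unlisted spots alone, while the partner coregulators, which have no unlisted spot, lie between −0.97 and 0.78.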

How the data were processed

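RNA of 3 pairs of S-1 and DAPT-treated CHO cultures was measured on 3 mouse cDNA arrays in 2 colours. The deposited values are log2 ratios, 1 per spot and array, which the authors read with GenePix Pro 6.0 and normalised by print-tip lowess without background subtraction. The direction was read from the study's lists of clones that rose or fell. Of these, 2213 were paired with 1 spot by their fold (relative tolerance 1e-05), all with the listed sign. The fold was matched to 2 times the ratio of a spot. The folds printed by the study for these clones are thus 2 times the ratios given here and cannot be compared with them directly. Collections were assigned by spot position. At 23 positions of each of 32 blocks, 736 spots whose ratios followed the dye were left out as controls, after their values were seen. Gene symbols came from the array's annotation (12563 of 16928 tested spots had 1). limma 3.58.1 in R 4.3.3 tested each spot, and the mean of the spots of each gene, against 0 with Benjamini-Hochberg adjustment over all of them. It was tested on simulated data. Tables were made in Python 3.11.15 with pandas 2.3.3 and NumPy 2.4.6, and figures with Matplotlib 3.10.9. Exact sign turns of 3 arrays cannot give a two-sided p below 0.25.

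Members met the criteria for naming with a passing spot or gene value, 3 or more spots, or spots beyond 0.3 in both directions. In each list up to 4 passing genes per direction did. The other members were named in brief, by range, count or mean value. The members and lists were chosen with earlier results of these data known.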

Additional observations from a re-analysis of the deposited data

How the results depend on the processing

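Ratios carry no signal over background, so that the depth behind a spot is unknown, and the number of arrays limits the precision. No paired analysis was possible because the arrays form 1 group, in which each ratio already pairs the cultures of an array. All 21 member spots that passed kept their direction under every alternative that included them. Leaving out the unlisted spots, or fitting H and P clones together (chosen after seeing the data), or H clones alone, left 2 member spots and 2 member genes that rose. With these settings 4, 5 and 2 member genes fell. Of the 14 spots that rose and 7 that fell, keeping the control spots in the fit left 9 and 3, and the dye as a coefficient gave 23 and 16. The dye coefficient gave 16 genes that rose and 7 that fell. Array weights gave 12 spots and 5 genes that fell. A threshold of 0.05 gave 24 spots that rose and 13 that fell, and 19 genes that rose and 6 that fell. A minimum of 1.5-fold left 4 spots that fell. With 1 array left out, 6 to 24 spots rose and 0 to 16 fell, and 7 to 16 genes rose and 1 to 5 fell, the lowest spot counts without array 2 and the highest without array 3. Among all tested spots 263 rose and 100 fell without array 2, 776 and 575 without array 1, and 3177 and 3088 without array 3, beside 1638 and 1442 with all arrays. The cause of these shifts was not tested.

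For the lists, run under alternatives chosen after seeing the data, the partner coregulators that rose, 2 of 43, were 1 with H and P clones and with H clones alone, 6 with array weights, 9 with the dye coefficient and 0 to 6 with 1 array left out, and those that fell were 11 with the dye coefficient and 1 to 11 with 1 array left out. Of the ligand genes 1 rose without unlisted spots and with H clones alone and 2 with H and P clones, while 3 fell without unlisted spots, with H and P clones, with array weights and with the dye coefficient, and 1 to 2 with 1 array left out. Of the target genes 3 rose without unlisted spots, 2 with H and P clones and 1 with H clones alone, and 1 to 8 fell with 1 array left out.

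Of the genes that met the criteria for being named, the members Nr3c1, Vdr, Pparg, Nr1d2, Nr2f2 and Nr5a2 changed sign. So did Hdac3, which is no member but a listed coregulator. Of the listed genes named after their values were seen, Cpt1a, Acadm, Cyp46a1 and Ptgs2 turned from positive to negative without unlisted spots. Nr3c1 was at −0.17 without unlisted spots and with H and P clones, −0.22 with H clones alone and −0.0691 as the median of its spots. Vdr was at −0.36 without unlisted spots and with H and P clones. Pparg was at −0.0650 and Nr2f2 at −0.13 in the settings without unlisted spots. Nr1d2 was at −0.23 without unlisted spots and with H and P clones, −0.17 with H clones alone and −0.0289 as the median. Nr5a2 lay between −0.15 and 0.0018 with 1 array left out, and Hdac3 at −0.10 with H and P clones and with H clones alone. Centring each array, scaling the arrays, quantile normalisation and a robust variance prior changed the sign of no gene that met the criteria for being named. They changed none of the 4 counts of members by over 1.5 times.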
